A study of Mus musculus with 29 samples.

Results

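The 8 genes described here are the oocyte transcription factors Figla, Sohlh1, Sohlh2, Nobox, Lhx8, Obox1, Obox5 and Taf4b. They were taken by name from a table of 51912 gene IDs, and all 8 matched an ID. Gene expression had been measured by bulk RNA sequencing of dissociated mouse ovary cells in 29 samples. Wild-type ovaries (Cdkn1b +/+) and ovaries homozygous for a null allele of Cdkn1b (Cdkn1b -/-, p27null in the sample titles and Cdkn1b-null here) were collected before birth, on embryonic days 13.5 (E13.5) and 18.5 (E18.5), and after it, on postnatal day 8 (PND8) and at an age of 12 weeks (12wk). There were 4 wild-type samples at each age, 4 Cdkn1b-null samples at E18.5, and 3 Cdkn1b-null samples, numbered 1, 3 and 4, at each of the other ages. Cdkn1b encodes the cyclin-dependent kinase inhibitor p27Kip1, and the series asked how control of the cell cycle bears on ovarian development. The sources used here do not give the strain, the null allele, the littermates or whether a sample pooled animals, so the p-values measure the spread between these samples, which may be partly technical.

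The ovarian reserve is laid down when oocytes that have entered meiosis arrest and become enclosed, one by one, by pregranulosa cells to form primordial follicles. Figla, Sohlh1 and Sohlh2 are basic helix-loop-helix proteins, a class that binds the E-box sequence CANNTG as dimers, and Nobox, Lhx8, Obox1 and Obox5 carry homeodomains. Figla is known for activating the zona pellucida genes, Sohlh1 and Sohlh2 act upstream of Lhx8 and Nobox, and mice without Figla, Nobox, Sohlh1 or Lhx8 lose their oocytes around or soon after birth. Taf4b is a gonad-enriched subunit of TFIID, the complex that positions RNA polymerase II at promoters, and it is present in granulosa cells as well as in germ cells.

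Figla, Sohlh1, Nobox and Lhx8 were each called higher at E18.5 than at E13.5. Of these 4, the first 3 held an E-box in the 250 bases before their RefSeq transcription start (GRCm38.p6), and those windows are shown so that the matches can be seen, while the Lhx8 window held 0. The windows lie at chr6:86016941-86017190, plus strand, at chr2:25847249-25847498, minus strand, and at chr6:43309555-43309804, minus strand. Each is written 5′ to 3′ on the gene's strand, and capitals mark every match to CANNTG, a motif that reads the same on both strands.
Figla: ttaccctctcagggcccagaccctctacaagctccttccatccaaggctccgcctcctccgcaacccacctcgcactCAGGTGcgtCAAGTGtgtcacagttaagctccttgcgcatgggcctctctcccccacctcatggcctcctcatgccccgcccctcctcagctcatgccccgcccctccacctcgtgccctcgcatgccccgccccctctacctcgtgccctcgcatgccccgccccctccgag
Sohlh1: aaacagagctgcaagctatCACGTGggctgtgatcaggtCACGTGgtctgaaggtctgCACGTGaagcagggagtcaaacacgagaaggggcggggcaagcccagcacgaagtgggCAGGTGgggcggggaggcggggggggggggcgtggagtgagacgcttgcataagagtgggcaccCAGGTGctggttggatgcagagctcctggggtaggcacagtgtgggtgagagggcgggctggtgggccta
Nobox: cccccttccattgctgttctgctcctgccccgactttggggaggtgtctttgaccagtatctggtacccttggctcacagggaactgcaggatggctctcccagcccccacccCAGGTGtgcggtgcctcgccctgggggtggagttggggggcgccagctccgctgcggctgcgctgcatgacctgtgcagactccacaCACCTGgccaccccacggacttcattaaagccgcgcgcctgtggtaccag

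The Sohlh1 window held 5 E-boxes, of which 3 were CACGTG, and the Figla and Nobox windows held 2 each. Of 32851 RefSeq windows of this length, 66.2% held at least 1 match, 31.8% at least 2 and 1.2% at least 5. Over the other members with a RefSeq window, Sohlh2 had 1 match, Obox1 and Obox5 had 2 each, and Lhx8, which was called higher at E18.5 like the genes shown, had 0. The homeodomain-type sequences TAATTG and TAATTA, searched on both strands, and TATAAA were found in 0 of the 7 windows, against 7.2%, 4.8% and 12.4% of all windows. A match is a description of the letters and was not tested as a binding site.

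The Obox genes are a cluster of near copies on chromosome 7, and a 30-base stretch just upstream of the RefSeq starts of Obox1 (chr7:15547184-15547213, plus strand) and Obox5 (chr7:15750285-15750314, plus strand) shows how alike they are. Capitals mark an E-box, and the stretches differ at 1 base.
Obox1: CAAGTGggtggagccagcgtgaaggaggag
Obox5: CAAGTGggtggagccaacgtgaaggaggag

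Over the full 250-base windows, 228 bases were identical between Obox1 and Obox5, which is 91.2%. The likeness extends into the transcripts, where 57.4% of the 50-base words of Obox1 and 18.1% of those of Obox5 also occur in another gene, mainly Obox2, Obox5 and Obox7 for Obox1 and Obox7 and Obox1 for Obox5. No 50-base word of the other 6 members did. The authors' counting divided such reads, so the deposited count was not a whole number in 13 of the 14 libraries with Obox1 counts (92.9%) and in 7 of the 14 with Obox5 counts, and in 0 libraries for the other 6 members. Obox1 also shares 59 exon bases with Obox2. The split between Obox1, Obox5 and their copies is therefore uncertain.

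By the GENCODE M21 annotation of GRCm38, Figla (ENSMUSG00000030001) lies on chromosome 6 at 86016171 to 86020996, Nobox (ENSMUSG00000029736) on chromosome 6 at 43303674 to 43309554, and Sohlh1 (ENSMUSG00000059625) on chromosome 2 at 25842995 to 25847248. Sohlh2 (ENSMUSG00000027794) lies on chromosome 3 at 55182028 to 55209957, and Lhx8 (ENSMUSG00000096225) on the same chromosome at 154306294 to 154330659. Obox1 (ENSMUSG00000054310) spans 15388948 to 15556866 and Obox5 (ENSMUSG00000074366) spans 15750131 to 15759800 on chromosome 7, and Taf4b (ENSMUSG00000054321) is on chromosome 18. The Figla window and the Obox1 and Obox5 stretches shown above lie inside these bounds, so they are upstream by the RefSeq starts only.

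Libraries held totals of 14.1 to 48.2 M counts. A floor of 3 counts was taken as the upper limit for a count of 0, and single libraries can show less. It corresponded to 0.0622 to 0.213 CPM, the count scaled to the total of the library. Such floors and any counting interval cover counting error only. Cdkn1b was lower in every Cdkn1b-null library than in every wild-type library of its age. Group means, null against wild type, were 4.49 against 22.8 CPM at E13.5 and 12.7 against 103 CPM at E18.5. They were 71.7 against 148.5 CPM at PND8 and 51.2 against 183 CPM at 12wk. The Cdkn1b difference passed the test at E13.5, E18.5 and PND8 and not at 12wk (log2 fold change -1.85 ± 0.31, SE, edgeR adjusted p = 0.211). Of 8 granulosa cell genes, 0 were at 0 throughout any PND8 or 12wk group. The 4 germ cell genes Ddx4, Dazl, Mael and Rnf17 had summed means of 386.5 CPM in wild-type ovaries at E13.5, 294 CPM at E18.5, 21.2 CPM at PND8 and 3.56 CPM at 12wk. In bulk tissue, fewer cells of a type and less RNA per cell cannot be told apart. One wild-type library, E13.5 replicate 3, had a summed level of 6 erythroid genes of 200700 CPM against at most 10090 CPM in the other libraries of that age, and the results that use it are given with and without it where they moved.

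Levels below are CPM scaled by TMM over all 29 libraries, and a fold change is the log2 ratio of the edgeR quasi-likelihood fit with its standard error. A gene is called where the Benjamini-Hochberg adjusted p over all genes tested was under 0.05. Consecutive steps share the samples of the age between them. Genes near 0 at one age, or in one genotype, entered a test only through the age or genotype at which they were high. They so had to differ, which makes the counts of called members and listed genes a description.

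**Figure D1:**
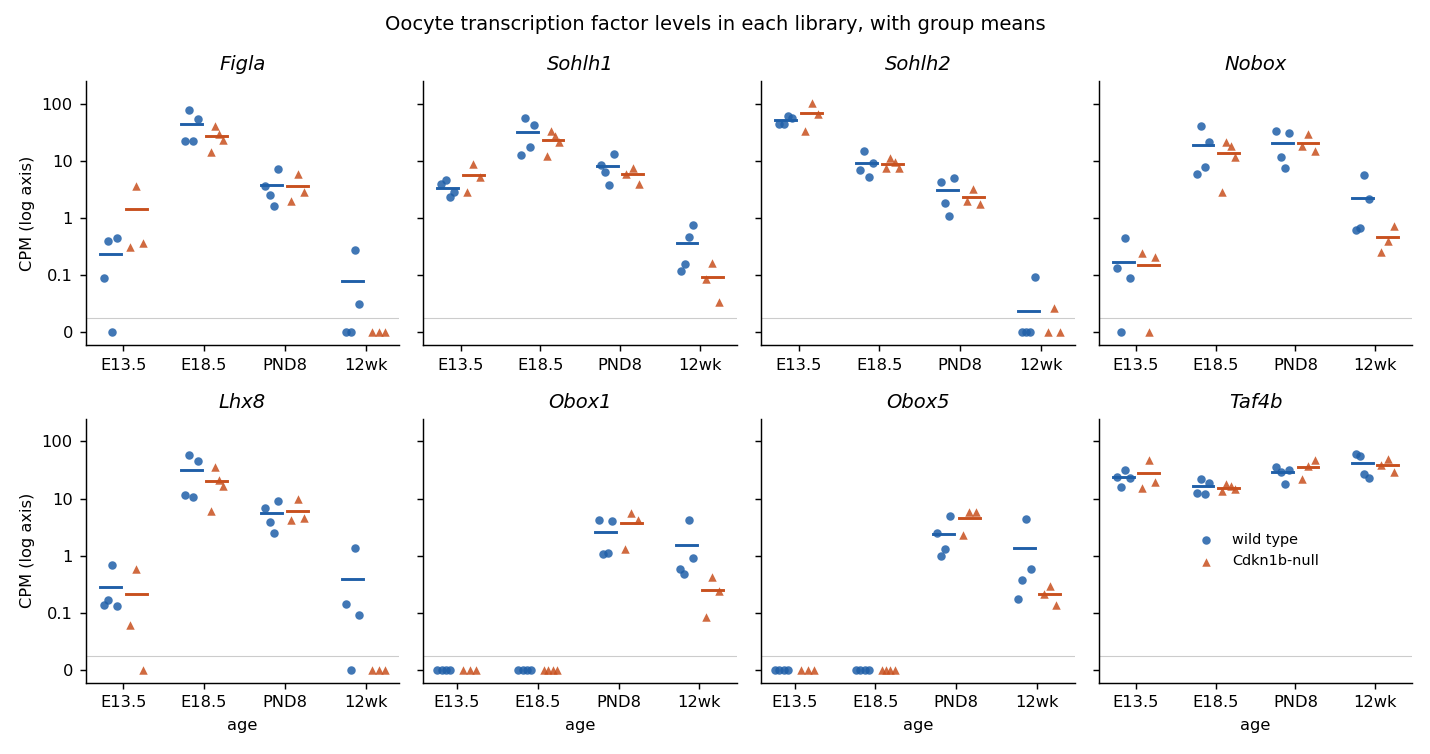
Each point is one library, with CPM on a log axis against age, circles for wild type, triangles for Cdkn1b-null and bars for group means. Points under the grey line at the foot are libraries with a count of 0. Figla, Sohlh1, Nobox and Lhx8 stand highest at E18.5 or PND8, Sohlh2 at E13.5, and Obox1 and Obox5 have no count before PND8, while Taf4b stays between 12.1 and 61.0 CPM.

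Figla, which binds E-boxes upstream of zona pellucida genes, went from near absence to its highest group mean between the embryonic ages. Wild-type replicates 1 to 4 had 0.0908, 0.393, 0 and 0.442 CPM at E13.5 and 22.6, 78.0, 22.1 and 54.8 CPM at E18.5. Levels then were 3.63, 2.52, 1.65 and 7.16 CPM at PND8, and at 12wk they were 0, 0, 0.282 and 0.0311 CPM, from 10 counts over the 4 libraries. No wild-type library of one age overlapped those of the next. The first step was a log2 rise of 7.46 ± 0.71 (edgeR adjusted p = 8.35e-05), and Figla fell by 3.67 ± 0.57 to PND8 (edgeR adjusted p = 0.000227) and by 5.46 ± 0.98 to 12wk (edgeR adjusted p = 0.00384). The last value fell by 8.01 without 12wk wild-type replicate 3, which held 9 of the 10 counts.

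In Cdkn1b-null ovaries Figla measured 0.307, 3.63 and 0.372 CPM at E13.5, where replicate 3 was far above the others. It measured 14.4, 41.5, 29.3 and 23.2 CPM at E18.5 and 1.98, 5.97 and 2.89 CPM at PND8, and it was 0 in all 3 libraries at 12wk. The embryonic rise was 4.14 ± 0.88 (edgeR adjusted p = 0.0134) and 6.27 without E13.5 null replicate 3. That library also had the highest summed level of 12 meiotic prophase genes, 963.6 CPM against 154.5 and 273.6 CPM in the other null libraries and 227.6 to 274.9 CPM in wild type. Its sum of the 4 germ cell genes was also the highest. That sum was 763.9 CPM, against 239.5 and 502.9 CPM in the other null libraries and 312.9 to 441.4 CPM in wild type. The part of either set of genes in the Figla value was not tested. Between PND8 and 12wk Figla was at least 108-fold lower, counted against a floor of 3 counts over the group.

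Sohlh1, a partner of Sohlh2 that acts early in oocyte differentiation, was already present at E13.5. Wild-type values were 3.90, 4.55, 2.35 and 2.92 CPM at E13.5, 12.8, 57.2, 17.2 and 43.3 CPM at E18.5, 8.50, 6.49, 3.80 and 13.3 CPM at PND8, and 0.117, 0.158, 0.470 and 0.747 CPM at 12wk. The E18.5 and PND8 ranges overlapped slightly, through E18.5 replicate 1 and PND8 replicate 4, and the other steps did not overlap. Sohlh1 rose by 3.24 ± 0.49 (edgeR adjusted p = 0.000773), then fell by 2.13 ± 0.54 (edgeR adjusted p = 0.00463) and by 4.33 ± 0.63 (edgeR adjusted p = 0.00156). In Cdkn1b-null ovaries the 3 steps were 2.06 ± 0.45, -2.08 ± 0.36 and -5.76 ± 0.53, each called by edgeR.

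Sohlh2 ran opposite to its partner in the embryo. It stood at 44.9, 44.9, 60.2 and 56.7 CPM in wild type at E13.5, 7.06, 14.9, 5.25 and 9.25 CPM at E18.5, and 4.33, 1.83, 1.08 and 5.02 CPM at PND8, and at 12wk only replicate 4 had counts, 3 in all. The E13.5 libraries were all above the E18.5 libraries, and those were all above the PND8 libraries. Sohlh2 fell by 2.51 ± 0.30 (edgeR adjusted p = 0.000240) and by 1.67 ± 0.50 (edgeR adjusted p = 0.0119). From PND8 to 12wk the pooled ratio was 130, with a 95% counting interval of 44.3 to 635. Cdkn1b-null ovaries had 34.0, 105 and 66.1 CPM at E13.5 and fell by 2.93 ± 0.35 and 2.00 ± 0.28 over the same steps (edgeR adjusted p = 0.00104 and 8.71e-05), with 1 count in all at 12wk.

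Nobox, a homeobox factor of primordial and growing follicles, was the member with no called step between E18.5 and PND8. Wild-type libraries had 0.136, 0, 0.454 and 0.0884 CPM at E13.5, 5.92, 40.5, 7.97 and 21.2 CPM at E18.5, 33.1, 11.7, 7.49 and 31.0 CPM at PND8, and 0.613, 0.661, 5.67 and 2.18 CPM at 12wk. The E18.5 and PND8 libraries covered much the same range. Nobox rose by 6.92 ± 0.92 to E18.5 (edgeR adjusted p = 0.000490), had a log2 change of 0.03 ± 0.68 to PND8 (edgeR adjusted p = 0.966), and fell by 3.12 ± 0.80 to 12wk (edgeR adjusted p = 0.0181). The last value was -4.09 without 12wk wild-type replicate 3, and the first rise was 7.81 without E13.5 wild-type replicate 3 and 6.19 without E18.5 wild-type replicate 2. In Cdkn1b-null ovaries Nobox rose by 6.58 ± 1.03, changed by 0.57 ± 0.61 (edgeR adjusted p = 0.421) and fell by 5.37 ± 0.46.

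Lhx8, a LIM-homeobox factor needed for early oocytes, had its highest group mean at E18.5, as Figla did. It had 0.136, 0.169, 0.681 and 0.133 CPM in wild type at E13.5, 11.7, 56.9, 10.7 and 44.8 CPM at E18.5, 6.96, 3.92, 2.52 and 9.06 CPM at PND8, and 0.146, 0, 1.35 and 0.0933 CPM at 12wk. No library of one age overlapped those of the next, although E18.5 replicate 3 and PND8 replicate 4 lay close. Lhx8 rose by 6.93 ± 0.82 (edgeR adjusted p = 0.000282), fell by 2.57 ± 0.64 (edgeR adjusted p = 0.00446) and fell by 3.75 ± 1.02 (edgeR adjusted p = 0.0232). The last call was lost without PND8 replicate 1 or 4 or without 12wk replicate 1 or 4 (edgeR adjusted p 0.0523 to 0.0607), and the value was -5.98 without 12wk replicate 3. The first rise was 7.71 without E13.5 replicate 3.

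In Cdkn1b-null ovaries Lhx8 had 0.0615, 0.579 and 0 CPM at E13.5, 5.95, 36.4, 21.2 and 16.8 CPM at E18.5, and 4.22, 9.66 and 4.57 CPM at PND8. All 3 libraries of 12wk were at 0, which is at least 183-fold lower than PND8. The embryonic rise was 6.32 ± 1.03 (edgeR adjusted p = 0.00478), or 9.16 without E13.5 replicate 3, and Lhx8 fell by 1.76 ± 0.62 to PND8 (edgeR adjusted p = 0.0338). That fall lost its call in 5 of the 7 fits that left out 1 library, without E18.5 replicate 2, 3 or 4 or PND8 replicate 1 or 4 (edgeR adjusted p 0.0501 to 0.119).

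Obox1 and Obox5, oocyte homeobox genes best known for their role at the start of embryonic transcription, had 0 counts in all 15 embryonic libraries. At PND8 wild-type libraries had 4.23, 1.07, 1.14 and 4.12 CPM of Obox1 and 2.53, 0.986, 1.33 and 4.88 CPM of Obox5. Cdkn1b-null libraries had 1.33, 5.67 and 4.22 CPM of Obox1 and 2.31, 5.76 and 5.71 CPM of Obox5. Against the floor of 3 counts at E18.5, Obox1 was at least 73.8-fold and Obox5 at least 68.0-fold higher at PND8 in wild type, and at least 107-fold and 131-fold higher in Cdkn1b-null ovaries. All 4 steps were called by edgeR.

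At 12wk the wild-type libraries had 0.584, 0.472, 4.26 and 0.902 CPM of Obox1 and 0.175, 0.378, 4.38 and 0.591 CPM of Obox5, so that replicate 3 was just above the PND8 range for Obox1 and within it for Obox5, and the others were below both ranges. The step from PND8 was -0.69 ± 0.79 for Obox1 and -0.74 ± 0.95 for Obox5 in wild type (edgeR adjusted p = 0.551 and 0.597), and without 12wk replicate 3 both fell, by 1.93 and 2.58 (edgeR adjusted p = 0.0493 and 0.0238). Cdkn1b-null ovaries had 0.0853, 0.433 and 0.242 CPM of Obox1 and 0.213, 0.298 and 0.138 CPM of Obox5, and the steps were -3.74 ± 0.73 and -4.29 ± 0.53 (edgeR adjusted p = 0.0103 and 0.00220).

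Taf4b, the TFIID subunit, had at least 243 counts in every library. Wild-type libraries had 24.1, 16.2, 31.7 and 23.1 CPM at E13.5, 12.6, 21.7, 12.1 and 19.1 CPM at E18.5, 35.8, 28.9, 18.3 and 31.8 CPM at PND8, and 61.0, 55.6, 26.9 and 23.1 CPM at 12wk, and each age overlapped the next. Its only called step in wild type was a rise of 0.72 ± 0.26 between E18.5 and PND8 (edgeR adjusted p = 0.0286), which was lost without E18.5 replicate 1 or 3 or PND8 replicate 1 (edgeR adjusted p 0.0561 to 0.0693). In Cdkn1b-null ovaries the same step was a rise of 1.13 ± 0.24 (edgeR adjusted p = 0.00216), from 13.6, 17.8, 16.4 and 14.6 CPM to 21.7, 37.1 and 47.1 CPM. At 12wk these ovaries had 38.9, 49.2 and 28.9 CPM.

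Counted over the members, 5 of the 6 tested were called between E13.5 and E18.5 in wild type, where 34.0% of all genes tested were called, and 5 of 6 in Cdkn1b-null ovaries, against 30.2%. For the step into PND8 the count was 7 of 8 in each genotype, against 74.6% and 77.4% of all genes, shares close to the members' own. Libraries held 17.3 to 22.8 M counts at E18.5 and 32.3 to 48.2 M at PND8. Age and whatever goes with library depth cannot be told apart at this step. Between PND8 and 12wk, 5 of 8 were called in wild type, against 30.5%, and 7 of 8 in Cdkn1b-null ovaries, against 29.1%, and each of these was lower at 12wk, as were 14.3% of all genes in either genotype. The last step was not tested for a difference between the genotypes on its own, and the interaction over all 4 ages called 0 of the 8.

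Per kilobase of exon, which allows genes to be compared, the order of mean levels changed with age. In wild type at E13.5 Sohlh2 led with 21.9 ± 3.36 CPM per kilobase (SD, n = 4), above Taf4b (4.62 ± 1.23) in 4 of 4 libraries. At E18.5 Figla led with 53.1 ± 32.4, above Sohlh1 (25.3 ± 16.4) in 4 of 4 libraries, and Sohlh1 was above Lhx8 (12.3 ± 9.25) in 4 of 4. At PND8 Nobox led with 10.4 ± 6.51, above Sohlh1 (6.23 ± 3.12) in 4 of 4 libraries, while Sohlh1 was above the next gene, Taf4b (5.58 ± 1.45), in only 1 of 4 libraries. At 12wk Taf4b led with 8.09 ± 3.77, above Nobox (1.13 ± 1.18) in 4 of 4 libraries. The same genes led at each age in Cdkn1b-null ovaries.

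The genotype comparison called 0 of the members at any age. At E13.5 edgeR tested 3 of the 8 and called 0, against 0.00606% of all genes, at E18.5 it called 0 of 6, against 4.99%, at PND8 0 of 8, against 0.349%, and at 12wk 0 of 4, against 0.0115%. At an unadjusted p under 0.05 the counts were 0, 0, 0 and 2 members, against 3.49%, 22.1%, 15.0% and 9.63% of all genes, and DESeq2 called 0 members at each age. In the interaction of genotype and age over all 29 libraries, edgeR called 0 of 8 members, against 0.806% of 20359 genes. Figla had the lowest adjusted p among them (edgeR adjusted p = 0.324), and 1 of 8 members had an unadjusted p under 0.05, as did 12.7% of all genes. DESeq2 called 0 members.

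**Figure D2:**
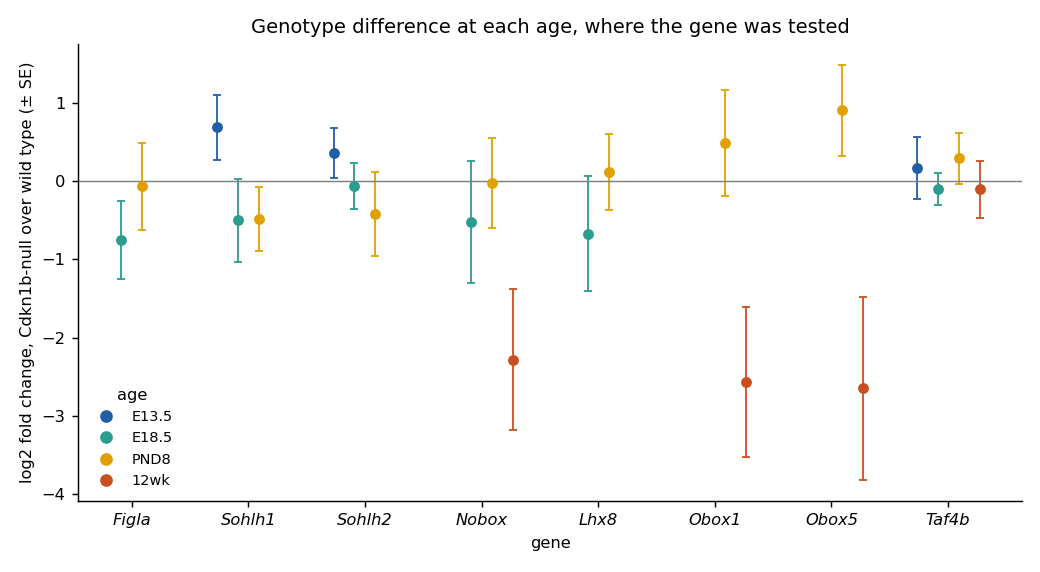
Points give the log2 fold change of Cdkn1b-null over wild type with its standard error for each member and age at which the gene passed the filter on low counts. The E18.5 values run from -0.75 to -0.06 and the 12wk values of Nobox, Obox1 and Obox5 from -2.65 to -2.28, and none passed the test.

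At E13.5 the log2 differences were 0.68 ± 0.41 for Sohlh1, 0.36 ± 0.32 for Sohlh2 and 0.16 ± 0.40 for Taf4b (edgeR adjusted p = 0.989 for each). Without null replicate 3, the library with the high meiotic prophase and germ cell sums, they were 0.22, -0.08 and -0.49. Figla, Nobox, Lhx8, Obox1 and Obox5 did not pass the filter on low counts at E13.5. With no filter Figla differed by 2.55 ± 1.05 (edgeR adjusted p = 0.797), and null replicate 3 was its highest library. At E18.5 the 6 tested members had lower fitted values in Cdkn1b-null ovaries, from -0.75 ± 0.50 for Figla (edgeR adjusted p = 0.419) and -0.67 ± 0.74 for Lhx8 to -0.06 ± 0.30 for Sohlh2. The 4 germ cell genes had a median of -0.56 in the same comparison, against -0.04 over all genes tested. At PND8 the differences ran from -0.48 ± 0.41 for Sohlh1 to 0.90 ± 0.58 for Obox5 (edgeR adjusted p = 0.625 and 0.510), with 0.11 ± 0.49 for Lhx8 and -0.03 ± 0.58 for Nobox.

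Among the members tested, the 12wk ovaries held the widest fitted differences of the genotype comparison. Nobox had 0.256, 0.406 and 0.725 CPM in Cdkn1b-null ovaries, of which 2 were below all wild-type libraries, and a fitted difference of -2.28 ± 0.90 (unadjusted p = 0.0365, edgeR adjusted p = 0.489). The fitted difference was -2.57 ± 0.96 for Obox1 (unadjusted p = 0.0293, edgeR adjusted p = 0.482) and -2.65 ± 1.17 for Obox5 (unadjusted p = 0.0549, edgeR adjusted p = 0.529). Obox1 was the only member at any age whose libraries did not overlap between genotypes, with all 3 null libraries below all 4 wild-type libraries, as for 3.99% of the genes tested at 12wk. Null replicate 3 lay just below wild-type replicate 2, and the split of reads between the Obox copies is uncertain. A separation in either direction was seen for 8.77% of genes at 12wk, and for 3.73%, 15.2% and 14.3% at the 3 earlier ages in turn. Taf4b differed by -0.11 ± 0.36 (edgeR adjusted p = 0.950).

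Figla, Lhx8, Sohlh1 and Sohlh2 were too low at 12wk to be tested. Lhx8 had 51 counts over the wild-type libraries, 43 of them in replicate 3, and 0 over the null libraries, which is at least 11.8-fold lower. Figla had 10 counts against 0, at least 2.33-fold lower, and Sohlh1 had 48 against 9. Sohlh2 had 3 counts against 1, which is too few for a ratio.

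Wild-type replicate 3 was the highest of the 7 libraries of 12wk for Figla, Nobox, Lhx8, Obox1 and Obox5, and also for the oocyte genes Zp3 (12.5 CPM against 0.587 to 4.08 CPM in the others), Gdf9 (33.9 against 1.88 to 8.09 CPM) and Bmp15 (14.7 against 0.345 to 2.89 CPM). The 4 germ cell genes summed to 6.20 CPM in it, against 2.54 to 2.83 CPM in the other wild-type libraries and 2.68 to 2.93 CPM in the null libraries. Without it the differences were -1.32 ± 0.69 for Nobox and -1.34 ± 0.61 for Obox1 (edgeR adjusted p = 0.656 and 0.627), and Obox5 no longer passed the filter on low counts.

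Replicate 3 was not the highest for the other 3 members. Sohlh1 was highest in wild-type replicate 4, Sohlh2 had wild-type counts in replicate 4 alone, and Taf4b was higher in wild-type replicates 1 and 2 than in 3 and 4. The follicle-stimulating hormone receptor gene Fshr, a granulosa gene chosen after its values were seen, had 41.9, 55.7, 23.1 and 22.1 CPM in the same wild-type libraries and 34.1, 34.2 and 10.9 CPM in the null libraries. The 8 granulosa genes together did not follow that order, with 4282, 4623, 6152 and 3538 CPM in wild type and 2135 to 4962 CPM in null ovaries. The part of granulosa cells in the Taf4b level was not tested.

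**Figure D3:**
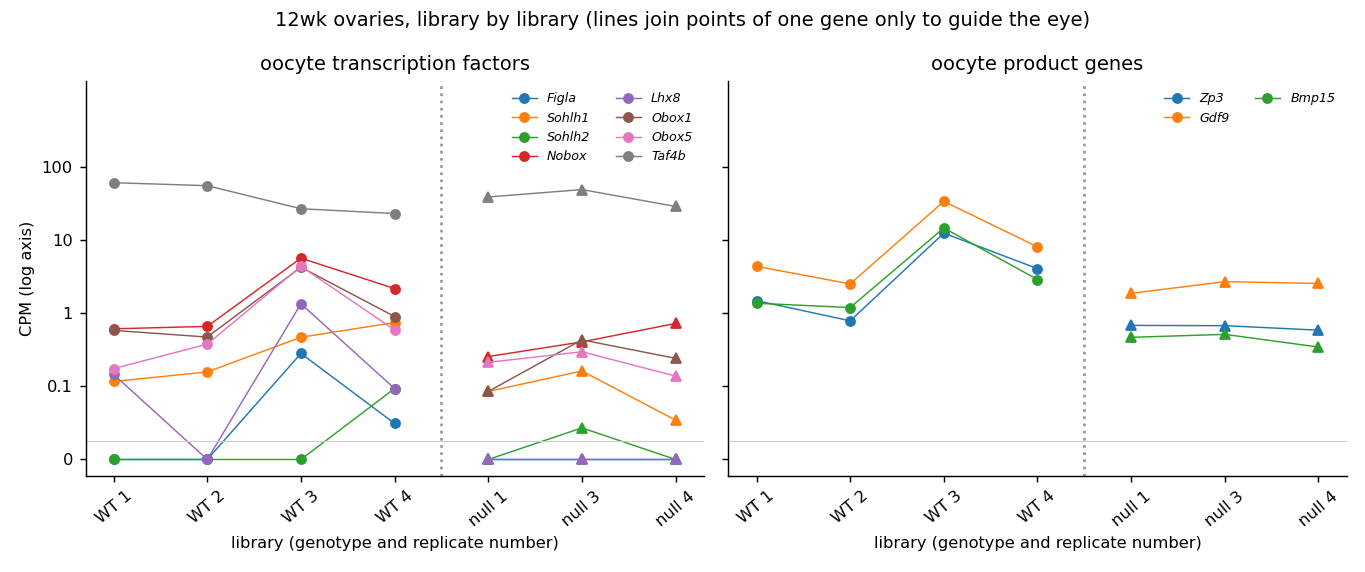
CPM on a log axis in each library of 12wk, with the members at left and 3 oocyte product genes at right, circles for wild type and triangles for Cdkn1b-null. Lines join the points of a gene only to guide the eye, and points under the grey line are counts of 0. Wild-type replicate 3 is highest for Figla, Nobox, Lhx8, Obox1, Obox5, Zp3, Gdf9 and Bmp15, and not for Sohlh1, Sohlh2 or Taf4b.

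Each member was also set against the mean log2 CPM of the 4 germ cell genes in the same library, as a description. At PND8, wild-type replicates 1 and 4 were above replicates 2 and 3 in CPM for each member, Obox1 and Obox5 included, and for Zp3 (93.2 and 103 against 22.7 and 31.0 CPM). For 7 of the 8 members the PND8 wild-type libraries lay closer together on the relative scale, and for Taf4b they lay further apart (SD 0.42 on the log2 CPM scale and 0.55 on the relative scale). Lhx8 went from an SD of 0.82 on the log2 CPM scale to 0.07, Sohlh2 from 1.01 to 0.17 and Nobox from 1.05 to 0.27. The relative level of Nobox was -2.13 ± 0.87 (SD, n = 4) in wild type at E18.5 and 2.03 ± 0.27 at PND8, where the germ cell genes themselves had fallen. This scale was not read at 12wk, where the germ cell genes are near the floor.

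On this scale 2 of 6 members did not overlap between genotypes at E18.5, against 6.67% of genes tested, and 2 of 8 at PND8, against 1.68%. On CPM the shares of all genes were 15.2% and 14.3%, and no member was separated at either age. The relative scale narrows the spread of genes that follow the germ cell genes. Its share over all genes is therefore not a like background for the members. On the relative scale Sohlh2 stood at -2.89, -2.56, -3.05 and -3.0 in wild type and -2.28, -2.46, -2.31 and -2.24 in Cdkn1b-null ovaries at E18.5, where the null libraries were all higher. At PND8 it stood at -0.48, -0.71, -0.90 and -0.63 in wild type and -1.07, -1.26 and -1.26 in null ovaries, where the null libraries were all lower. Taf4b at E18.5 was higher in the null libraries (-1.51 ± 0.20 against -1.97 ± 0.08), and Sohlh1 at PND8 was lower (0.11 ± 0.31, n = 3, against 0.79 ± 0.25, n = 4). The nearest libraries for Sohlh1 were 0.47 and 0.48, and no test was made on this scale. Relative values also move with the germ cell genes. At E18.5 the fitted genotype differences were -0.06 ± 0.30 for Sohlh2 and -0.10 ± 0.21 for Taf4b. The 4 germ cell genes had -0.62 to -0.48. At PND8 Sohlh2 had -0.42 ± 0.53, against 0.48 for Ddx4, 0.62 for Dazl, -0.60 for Mael and 0.12 for Rnf17.

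**Figure D4:**
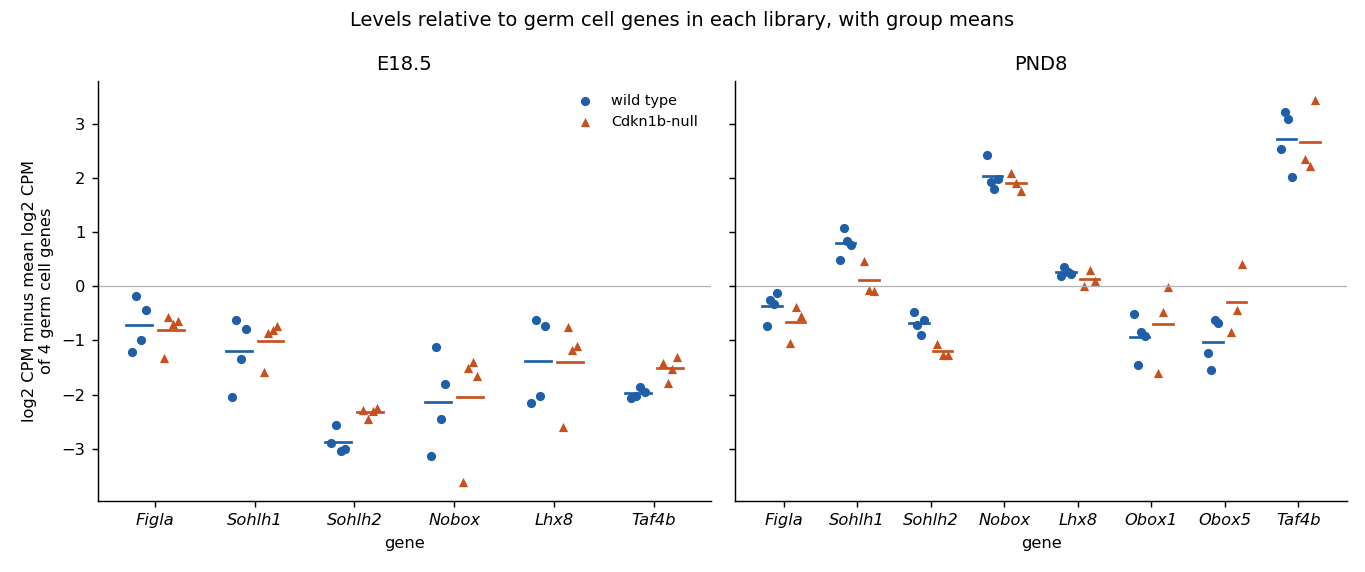
Each point is one library, showing log2 CPM of a member minus the mean log2 CPM of Ddx4, Dazl, Mael and Rnf17, with bars for group means, at E18.5 and PND8. Sohlh2 is higher in Cdkn1b-null libraries at E18.5 and lower at PND8, and the wild-type points of Lhx8 at PND8 lie within 0.19 to 0.36.

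Of 18 genes listed as known targets or products of these factors, 14 rose and 1 fell between E18.5 and PND8 in wild type, of 16 tested. Of all genes, 74.6% were called in either direction. Zp3, which encodes a zona pellucida protein and is a target of Figla, had counts in 1 of 4 libraries at E18.5 (1.15 CPM in replicate 2) and a mean of 62.4 ± 41.4 CPM (SD, n = 4) at PND8, and it was called higher (edgeR adjusted p = 0.000113). Gdf9 and Bmp15, growth factors secreted by the oocyte, rose by 2.87 ± 0.43 and 3.21 ± 0.54 (edgeR adjusted p = 0.000140 and 0.000305). Kit, the receptor for stem cell factor on oocytes and other cells, fell by 1.07 ± 0.34 (edgeR adjusted p = 0.0155). Between PND8 and 12wk 9 of 16 were called in wild type, each lower, against 30.5% of all genes called in either direction. In Cdkn1b-null ovaries 16 of 16 were called, 15 lower and Kit higher, against 29.1%. Of all genes, 14.3% were called lower in each genotype.

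By genotype edgeR called 0 of these 18 genes at each age, with 6, 8, 17 and 15 tested from E13.5 to 12wk. At an unadjusted p under 0.05 the counts were 0, 1, 0 and 14 of those tested, against 3.49%, 22.1%, 15.0% and 9.63% of all genes, and DESeq2 called 0, 1, 0 and 7. At PND8, 15 of 17 had a higher fitted value in Cdkn1b-null ovaries (median 0.83, against -0.0029 over all genes). At 12wk 14 of 15 had a lower one (median -2.85, against -0.0037). The exception was Kit, which was higher in Cdkn1b-null ovaries by 1.26 ± 0.22 (edgeR unadjusted p = 0.000463, edgeR adjusted p = 0.213). Kit was among the 14 genes at an unadjusted p under 0.05, so these were not the same genes as the 14 with a lower value. Genes low in null ovaries could pass the filter on low counts at 12wk through the wild-type libraries alone, which fixes their direction. The number tested was 12 without 12wk wild-type replicate 1, 3 or 4, so the 12wk counts are a description. Without 12wk wild-type replicate 3 the median was -1.67, with 11 of 12 tested genes lower and 8 of 12 at an unadjusted p under 0.05. Without any 1 of the 3 null libraries 6 or 7 of 16 were at an unadjusted p under 0.05, and edgeR called 0 in each of these fits.

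Among the other factors of the oocyte, Tbpl2, which replaces the TATA-binding protein in growing oocytes, was at 0.0372 ± 0.0478 CPM in wild type at E18.5 and 1.34 ± 1.03 CPM at PND8, a called rise (edgeR adjusted p = 0.000647). It was at 0.0307 ± 0.0256 CPM at 12wk and at 0 in all 3 null libraries of that age. Taf4, the ubiquitous paralog of Taf4b, rose from 5.28 ± 0.93 to 13.2 ± 4.36 CPM between E13.5 and E18.5 and to 35.2 ± 3.29 CPM at PND8 in wild type, by 1.31 ± 0.28 and 1.31 ± 0.23 (edgeR adjusted p = 0.00511 and 0.000427). Of the 14 TFIID subunits other than Taf4b, edgeR called 0 by genotype at each age. At an unadjusted p under 0.05 there was 1 of 14 at E18.5 and 0 at each other age, and DESeq2 called 0 at each age. Between E18.5 and PND8 edgeR called 10 of the 14 in wild type, 3 higher and 7 lower, where 74.6% of all genes were called.

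The genes whose pattern over the 8 group means was most like each member were found by the root mean square difference of centred log2 CPM, among 15039 genes. Sohlh2 was closest to Tex19.1 (0.345 log2 units) and Ddx4 (0.581), and Sohlh1 to Tdrd9 (0.479) and Tmem132c (0.711). Figla was closest to Tdrd9 (1.05) and Crygb (1.1), Nobox to Ccno (0.804) and Ybx2 (0.925), and Lhx8 to Cnpy1 (0.817) and Mcpt4 (0.999). Taf4b was closest to Akap1 (0.0912) and Fam98a (0.113), and both Obox genes were closest to Obox2 (0.234 for Obox5 and 0.275 for Obox1) and Accsl (0.308 and 0.398), with reads shared among the Obox copies. Among the members themselves the closest pairs were Obox1 with Obox5 (0.241) and Figla with Lhx8 (0.988).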

How the data were processed

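RNA was extracted with a micro column kit from ovaries dissociated with papain, per the labels' protocols. The deposited values are the authors' expected counts per gene, the estimates RSEM makes by dividing reads that match several genes, and 31.4% of the nonzero values were not whole numbers (tolerance 0.001). The submitters' processing notes name FastQC 0.11.5, Trim Galore, STAR 2.5.2 and RSEM 1.3.0. The genome build, annotation, library kit and strandedness were not given in the sources used here, so positions come from GENCODE M21 (GRCm38) and promoter windows from RefSeq (7 of the 8 members matched).

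Expected counts were rounded and tested with edgeR 4.0.16 in R 4.3.3 (limma 3.58.1), after TMM scaling and edgeR's filter on low counts (filterByExpr, at least 10 counts in enough samples and 15 in all), by the robust quasi-likelihood test and Benjamini-Hochberg adjustment over all genes tested at 0.05. Genotypes were compared within each age, consecutive ages within each genotype, and the interaction over 29 samples. Levels are CPM, with a prior count of 2 for log2 values. Library totals of 14.1 to 48.2 M counts set the precision. Genotype fits were also run on simulated counts with a single dispersion for all genes. That run does not speak for genes that vary as much between libraries as the members do. The alternatives were RLE scaling, no filter on low counts, DESeq2 1.42.0, a block for the replicate number, and fits without 1 library. Leaving out each 12wk library for the target list was added after seeing the data.

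The members and gene lists were chosen with earlier results of these data known. Named genes are the 8 members, the 2 genes most like each, Zp3, Gdf9, Bmp15, Kit, the 4 germ cell genes, Tbpl2, Taf4 and Cdkn1b, and Fshr was added after its values were seen. Lists of other cell types were measured only for the values given here.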

Additional observations from a re-analysis of the deposited data

Results flagged for a closer look

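In groups of 4, a library was singled out where its gap to the nearest other exceeded Dixon's 95% critical share of the group's range. Chance does this in about 5% of groups of independent, normally distributed values. CPM near 0 and genes measured in the same libraries do not meet these terms, so the count is a description. A library was singled out in 8 of 80 groups checked. Of these, 6 were in 12wk wild-type replicate 3, which had 0.282 CPM of Figla against 0 to 0.0311 CPM in the other 3 libraries, 1.35 CPM of Lhx8 against 0 to 0.146 CPM, 4.38 CPM of Obox5 against 0.175 to 0.591 CPM, 4.26 CPM of Obox1 against 0.472 to 0.902 CPM, and 14.7 CPM of Bmp15 against 1.20 to 2.89 CPM. It also had 0.313 CPM of the germ cell gene Mael against 0 to 0.0311 CPM. The others were Lhx8 in E13.5 wild-type replicate 3, at 0.681 CPM against 0.133 to 0.169 CPM, and Zp3 in E18.5 wild-type replicate 2, at 1.15 CPM against 0 CPM.

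Sohlh2 relative to the 4 germ cell genes was 0.55 log2 units higher in Cdkn1b-null than in wild-type ovaries at E18.5 and differed by -0.51 at PND8, with no overlap of libraries at either age. This opposite direction was not tested. In CPM the Sohlh2 libraries of the genotypes overlapped at both ages. Its fitted difference was -0.06 ± 0.30 at E18.5, where the 4 germ cell genes had -0.62 to -0.48. At PND8 it was -0.42 ± 0.53, where the germ cell genes had -0.60 to 0.62.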

How the results depend on the processing

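Counts of called members stayed within 1.5 times the main count in 43 of 44 comparisons with another scaling, filter, tool or the replicate block, and in all 102 fits without 1 library. The exception was wild type from PND8 to 12wk, where 3 members were called with no filter on low counts against 5, Nobox and Lhx8 losing their calls (edgeR adjusted p = 0.0804 and 0.081). Leaving out 1 library gave 6 to 7 called members for wild type from E18.5 to PND8, 4 to 7 from PND8 to 12wk, and for Cdkn1b-null 5 to 6 from E13.5 to E18.5 and 6 to 7 from E18.5 to PND8. No called member changed direction in these fits.

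With no filter Figla lost its call from E13.5 to E18.5 (edgeR adjusted p = 0.052) and Lhx8 its call from E18.5 to PND8 (0.112) in Cdkn1b-null ovaries, where Taf4b was called lower from E13.5 to E18.5 by DESeq2 (adjusted p = 0.0407) and without null replicate 1 (-1.11, edgeR adjusted p = 0.033). The cause was not tested. Genes called by genotype over all genes were 1, 814, 62 and 2 from E13.5 to 12wk. DESeq2 gave 71, 1676, 741 and 298, no filter gave 258 at PND8 and 12 at 12wk, and leaving out 1 library gave 0 to 1, 246 to 1372, 0 to 147 and 0 to 3. The interaction called 164, DESeq2 708, and fits without 1 library 72 to 235. From PND8 to 12wk in Cdkn1b-null ovaries the 5071 calls became 2642 without PND8 replicate 3.

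Same-numbered samples deviated together only weakly (mean correlations 0.012, 0.181, 0.1 and 0.108 from E13.5 to 12wk, lowest -0.091). Whether the numbers mark pairs cannot be decided from these values, and the main fits did not use them as pairs. With the replicate block no count of called members changed. Genes called by genotype were 1, 937, 8 and 10, against 1, 814, 62 and 2 without it. For the interaction they were 161, against 164. Of the libraries, 3 of 6, 3 of 8, 4 of 6 and 4 of 6 correlated best with their own number, each among 3 libraries of the other genotype, or 4 at E18.5.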
